A study of Mus musculus with 9 samples.

Results

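The platelet-derived growth factor (PDGF) family in these submandibular glands (SMGs) comprised 4 ligand genes, *Pdgfa*, *Pdgfb*, *Pdgfc* and *Pdgfd*, and 2 receptor genes, *Pdgfra* and *Pdgfrb*. The 6 genes were taken by symbol from the 17562 genes and other features of the normalized expression table, and all 6 were among the 13842 tested. The RNA came from whole SMGs of adult male mice, 4 wildtype (WT) and 5 lacking both *Hs3st3a1* and *Hs3st3b1* (DKO), and the sources used here do not give their age. The deleted genes encode sulfotransferases that add 3-O-sulfate to heparan sulfate (HS), the sulfated sugar chain of cell surfaces and basement membranes. Both alleles were constitutive, on a C57BL/6 background: *Hs3st3a1* carried a frameshift deletion made by zinc finger nucleases, and *Hs3st3b1* a cassette allele. The comparison asks which transcripts differ between DKO and WT glands.

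PDGFs are secreted dimers that bind 2 receptor tyrosine kinases. PDGF-A and PDGF-B are cut by furin-like proteases inside the cell, whereas PDGF-C and PDGF-D leave the cell in a latent form and are activated by extracellular proteases. PDGFRα, typical of fibroblasts and other mesenchymal cells, is bound by the A, B and C chains, and PDGFRβ, typical of pericytes and vascular smooth muscle, by the B and D chains. In developing salivary glands the ligands pass signals between the epithelium and the mesenchyme around it. The B chain and the long splice form of the A chain carry a basic tail that holds the growth factor on HS, which is why their coding sequences are shown first.

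The sequences below are the coding part of *Pdgfa* exon 6, on chr5:138978638-138978690 (minus strand), and the stretch of *Pdgfb* exon 6 with the most lysine and arginine codons, on chr15:79997625-79997675 (minus strand), both in GRCm38 and written 5′ to 3′ with lysine and arginine codons in capitals.
Pdgfa exon 6: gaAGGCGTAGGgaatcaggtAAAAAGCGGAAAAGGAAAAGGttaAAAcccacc
Pdgfb exon 6: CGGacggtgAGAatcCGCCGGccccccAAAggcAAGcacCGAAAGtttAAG
Of the 17 whole codons in each, 11 code for lysine or arginine in *Pdgfa* and 9 in *Pdgfb*, where they start at codon 211 of 241. The *Pdgfa* exon was part of 1 of the 7 annotated transcripts. Reads were counted per gene, so the long and short forms of *Pdgfa* were not separated in any value that follows.

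The libraries held 17053747 to 37870519 counts. Counts of *Hs3st3a1* were 3 to 14 in the WT libraries and 0 in all 5 DKO libraries, and those of *Hs3st3b1* were 67 to 216 in WT and 7 to 45 in DKO. The 20 most abundant genes took 52.9% to 58.7% of the counts in WT and 59.4% to 70.3% in DKO. DKO 1 held 253648 counts of *Bpifa2*, a salivary secretory protein gene, against 99 to 1924 in the other 8 libraries, and stood apart in this. Without DKO 1 the 6 PDGF genes had log2 fold changes between -0.67 (*Pdgfa*) and -0.27 (*Pdgfrb*), and *Pdgfa* was no longer called (adjusted p = 0.0823, edgeR).

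All 6 PDGF genes had lower mean levels in DKO than in WT SMGs, and for 3 ligands, *Pdgfa*, *Pdgfd* and *Pdgfb*, every DKO library lay under every WT library. *Pdgfa* alone passed the test: it fell to 61.7% of WT. In edgeR's quasi-likelihood model, adjusted by Benjamini-Hochberg over the 13842 genes, 1 of 6 genes was called lower at an adjusted p under 0.05, against 0.462% of all genes (87 genes were called in either direction, 0.629%). At an unadjusted p under 0.05, 3 of the 6 were lower, against 7.6% of all genes. By DESeq2's Wald test 2 of 6, *Pdgfa* and *Pdgfd*, were lower, against 2.68% (4.45% in either direction), and by limma-voom with sample quality weights *Pdgfa* alone, against 0.759% (1.07%). Groups that did not overlap, with DKO below WT, were found for 3 of 6 genes, against 3.5% of all genes. A negative log2 fold change was found for 6 of 6, with a median of -0.51, against 47.5% of all genes and a median of 0.01. The PDGF genes were chosen with earlier results of these data known, so these shares are a description and not an independent comparison. In whole-tissue RNA, fewer cells of a type and less RNA per cell cannot be told apart.

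**Figure D1:**
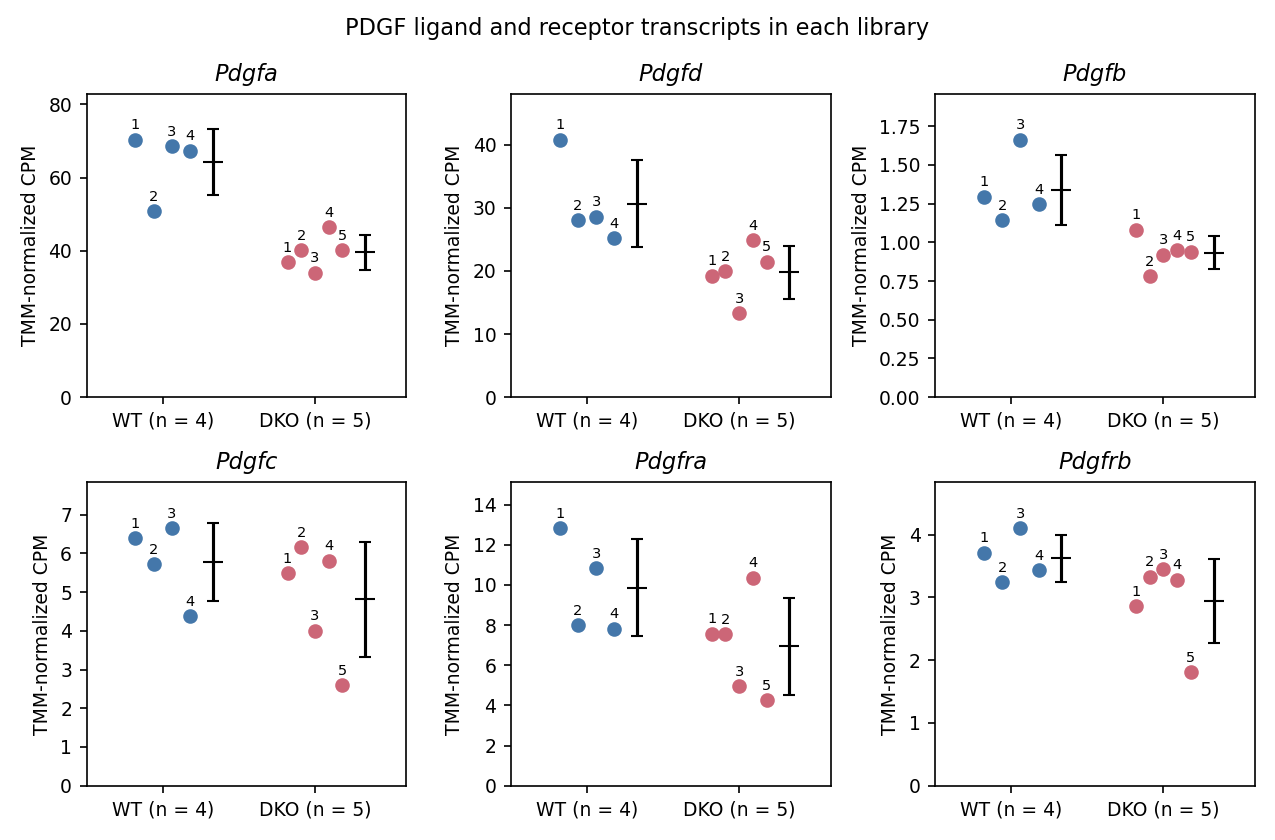
Levels of the 6 PDGF genes in each library as TMM-normalized CPM (counts scaled to library size), with library numbers beside the points and the mean ± SD of each genotype at the side. For *Pdgfa*, *Pdgfd* and *Pdgfb* all 5 DKO points lie under all 4 WT points, whereas for *Pdgfc*, *Pdgfra* and *Pdgfrb* the genotypes overlap.

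*Pdgfa* encodes the A chain, the ligand of PDGFRα that many epithelia make. It lies on chr5:138976014-138997370 (minus strand, GRCm38, GENCODE M21) and had the highest level of the 6 genes, on 557 to 3097 counts per library. In WT its level was 70.3, 50.7, 68.6 and 67.3 CPM, and in DKO 36.9, 40.2, 33.96, 46.5 and 40.2 CPM. WT 2 was the lowest WT library, and at 50.7 CPM it was still above DKO 4, the highest of the DKO libraries at 46.5 CPM. The means were 64.2 ± 9.08 (SD, n = 4) and 39.6 ± 4.68 (SD, n = 5) CPM, and the log2 fold change was -0.70 (SE 0.12, 95% interval -0.97 to -0.43, adjusted p = 0.0478, edgeR). DESeq2 gave an adjusted p of 1.34e-04. An exact two-sided permutation test of the CPM values gave p = 0.00794, the smallest p that 126 splits of 4 against 5 allow.

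The edgeR call for *Pdgfa* lay close to the threshold. It was kept when WT 2 (adjusted p = 0.0158) or DKO 4 (0.0183) was left out, and lost when any other library was (0.0522 to 0.198), with log2 fold changes between -0.79 and -0.64 throughout. It was also lost with upper quartile factors (adjusted p = 0.0514), without the 20 most abundant genes (0.0506) and on the authors' values with a pseudocount of 0.1 (0.0517), each at a log2 fold change of -0.69. DESeq2 called *Pdgfa* lower with each of the 9 libraries left out in turn. The exons of *Pdgfa* share 813 bases with *6330403L08Rik*, an antisense gene that held 9 to 89 counts, or 1.19% to 3.52% of the *Pdgfa* counts. The libraries were unstranded, so reads from this shared stretch could not be told apart.

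*Pdgfd*, on chr9:6168584-6378850 (plus strand), encodes the D chain, a latent ligand of PDGFRβ, and was the other abundant ligand gene. Its level was 40.8, 28.0, 28.6 and 25.2 CPM in WT, and 19.2, 19.99, 13.3, 24.8 and 21.4 CPM in DKO, on 290 to 1291 counts. The groups did not overlap, but WT 4 and DKO 4 were only just apart, and WT 1 stood above the other WT libraries. The means were 30.6 ± 6.93 (SD, n = 4) and 19.8 ± 4.196 (SD, n = 5) CPM. This is a log2 fold change of -0.63 (SE 0.18, 95% interval -1.03 to -0.23), which did not pass the edgeR test (adjusted p = 0.127). DESeq2 put it past the threshold (adjusted p = 0.0394), and the exact permutation test gave p = 0.0159. With 1 library left out, DESeq2 called it in 3 of 9 cases, without WT 2, WT 4 or DKO 4. The call was lost without WT 1 (log2 fold change -0.46, adjusted p = 0.287), WT 3 (0.103), DKO 1 (0.0896), DKO 2 (0.0904), DKO 3 (0.0688) or DKO 5 (0.0566).

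*Pdgfb*, on chr15:79995874-80014977 (minus strand), encodes the B chain, which endothelial cells and platelets make and which binds both receptors. It was the gene with the fewest counts, 13 to 75 per library, so that counting error alone was 11.5% to 27.7% of a value. Its level was 1.30, 1.14, 1.66 and 1.24 CPM in WT and 1.08, 0.780, 0.919, 0.948 and 0.939 CPM in DKO. The groups did not overlap, and WT 2 and DKO 1 were the closest libraries. Its log2 fold change was -0.52 (SE 0.22, 95% interval -1.003 to -0.033) and did not pass either test (adjusted p = 0.307 by edgeR and 0.381 by DESeq2), while the exact permutation test of this gene alone gave p = 0.00794.

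*Pdgfc*, on chr3:81036416-81214040 (plus strand), encodes the C chain, a latent ligand of PDGFRα, and its genotypes overlapped. The level was 6.39, 5.72, 6.65 and 4.38 CPM in WT and 5.49, 6.16, 4.00, 5.81 and 2.60 CPM in DKO. WT 4 lay among the DKO libraries, and DKO 5 was the lowest of all. Its estimate was a log2 fold change of -0.25 (SE 0.23, adjusted p = 0.694, edgeR), with a 95% interval from -0.75 to 0.25 that holds both a decrease of the size seen for *Pdgfa* and a small increase. Without DKO 5 the estimate was -0.11.

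Among the receptors, *Pdgfra* (chr5:75152292-75198215, plus strand) was measured on 59 to 489 counts. Its level was 12.8, 8.0, 10.8 and 7.81 CPM in WT and 7.56, 7.55, 4.96, 10.4 and 4.26 CPM in DKO. Of the 5 DKO libraries 4 lay under all WT libraries, and DKO 4 lay above 2 of the WT libraries. It had a log2 fold change of -0.49 (SE 0.25, 95% interval -1.03 to 0.04), and it did not pass the test (adjusted p = 0.392 by edgeR and 0.352 by DESeq2, exact permutation p = 0.0873). The fitted decrease was close to that of *Pdgfb* in size, but the spread was wider, with coefficients of variation of 24.4% in WT and 34.9% in DKO. Antisense or unclassified genes that share exon bases with *Pdgfra* or *Pdgfc* held 0 counts in these libraries.

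*Pdgfrb* (chr18:61045150-61085061, plus strand) varied least among the WT libraries, with a coefficient of variation of 10.3%. It measured 3.71, 3.24, 4.10 and 3.43 CPM in WT and 2.86, 3.32, 3.45, 3.28 and 1.80 CPM in DKO, on 25 to 185 counts. DKO 5 lay far below the rest, and 3 of the 5 DKO libraries lay inside the WT range. The log2 fold change was -0.29 (SE 0.19, 95% interval -0.71 to 0.13, adjusted p = 0.563, edgeR). Left-out libraries moved it between -0.34 and -0.17, and DESeq2 gave an adjusted p of 0.603.

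**Figure D2:**
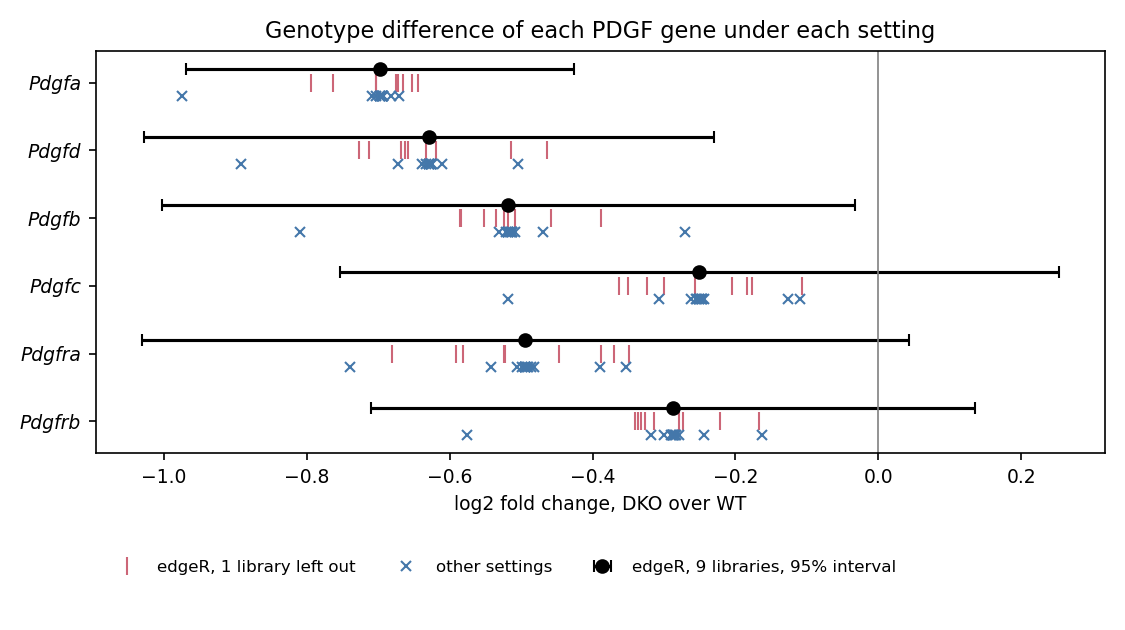
The log2 fold change (DKO over WT) of each PDGF gene: circles and bars are edgeR's estimate and 95% interval on 9 libraries, vertical ticks the edgeR estimates with 1 library left out, and crosses the estimates under other settings. All estimates lie below 0, and the intervals of *Pdgfc*, *Pdgfra* and *Pdgfrb* include 0.

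Levels of different genes were compared per kb of annotated exon. In WT the order of the mean levels was *Pdgfa* (20.6 CPM per kb), *Pdgfd* (9.72), *Pdgfc* (1.14), *Pdgfra* (0.984), *Pdgfrb* (0.661) and *Pdgfb* (0.321). Neighbours in this order did not overlap, except *Pdgfc* and *Pdgfra*. The DKO glands had the same order, with 12.7, 6.27, 0.945, 0.692, 0.537 and 0.224 CPM per kb, and there the ranges of *Pdgfc* and *Pdgfra* and those of *Pdgfra* and *Pdgfrb* overlapped. Among the genes tested, the WT mean CPM of *Pdgfa* was above that of 91.0% and that of *Pdgfb* above 18.9%. The order is therefore one in which the transcripts of a PDGFRα ligand and a PDGFRβ ligand each exceeded those of both receptors per kb.

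**Figure D3:**
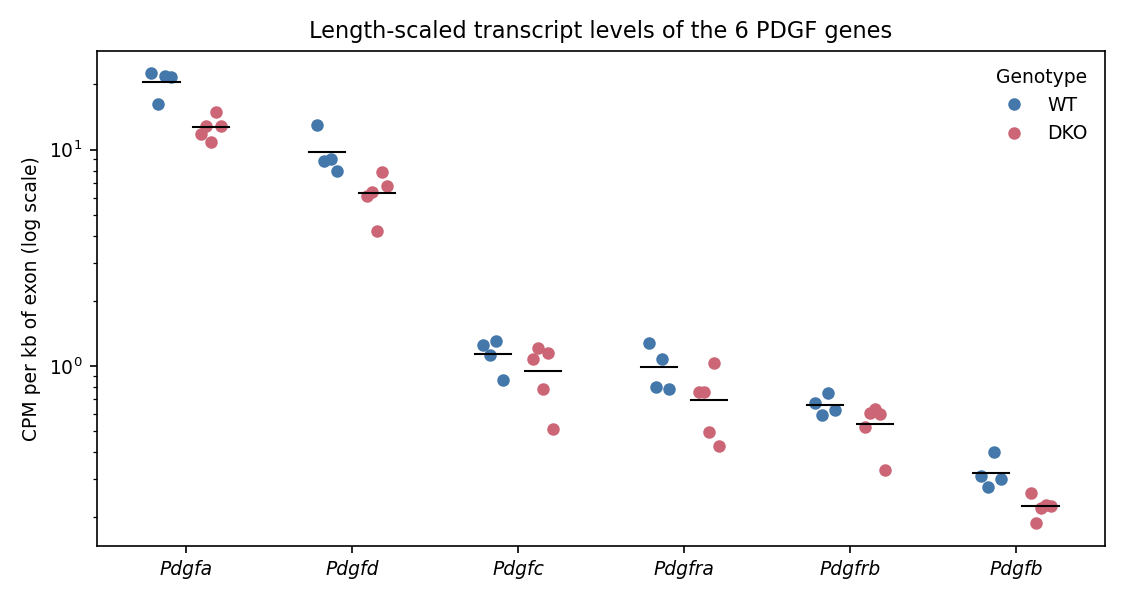
Length-scaled levels (CPM per kb of exon, log axis) of the 6 PDGF genes, 1 point per library and a line at the mean of each genotype. *Pdgfa* and *Pdgfd* lie above the other 4 genes in both genotypes, and *Pdgfb* lies lowest.

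The ligands were also summed within each library. Over the 4 ligands, the summed level was 26.6 to 37.0 CPM per kb in WT and 16.1 to 24.2 CPM per kb in DKO, without overlap. *Pdgfa* made up 60.9% to 70.3% of this sum in WT and 61.4% to 67.5% in DKO, and *Pdgfd* 26.0% to 34.9% and 26.2% to 33.3%. Neither of these 2 genes overlapped on its own, so the separation of the sum follows from theirs and is no further result. *Pdgfc* took 2.80% to 4.23% in WT and 2.5% to 5.86% in DKO, and *Pdgfb* 0.841% to 1.22% and 0.908% to 1.37%. The composition ranges thus overlapped between genotypes for each of the 4 ligands. The log2 ratio of *Pdgfa* to *Pdgfra* counts within a library, which needs no library scaling, was 2.46 to 3.11 in WT and 2.17 to 3.24 in DKO. That of *Pdgfb* to *Pdgfrb* was -1.52 to -1.30 in WT and -2.09 to -0.94 in DKO, and that of *Pdgfra* to *Pdgfrb* 1.19 to 1.79 and 0.53 to 1.66. All these ranges overlapped, and no ratio was tested.

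Upstream sequence is shown for the abundant ligands, *Pdgfa* and *Pdgfd*. Of the 6 genes 4 were matched to 250 bases upstream of a RefSeq start (GRCm38.p6), *Pdgfa* at 2 starts. Bases inside annotated *Pdgfa* exons are not printed. The longest exon-free stretch at the first *Pdgfa* start is the 117 bases at chr5:138994282-138994398 (minus strand), shown here. That at the second start, 157 bases at chr5:138995038-138995194, held no GGGCGG and is not shown, and the 2 matches of that 250-base window lay in its exon bases. *Pdgfd* is shown at chr9:6168236-6168485 (plus strand). Capitals mark GGGCGG (a GC box) in *Pdgfa* and TATAAA in *Pdgfd*, each searched on both strands.
Pdgfa upstream: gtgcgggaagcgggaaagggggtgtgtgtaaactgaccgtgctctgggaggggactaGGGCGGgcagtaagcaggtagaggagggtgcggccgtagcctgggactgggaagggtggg
Pdgfd upstream: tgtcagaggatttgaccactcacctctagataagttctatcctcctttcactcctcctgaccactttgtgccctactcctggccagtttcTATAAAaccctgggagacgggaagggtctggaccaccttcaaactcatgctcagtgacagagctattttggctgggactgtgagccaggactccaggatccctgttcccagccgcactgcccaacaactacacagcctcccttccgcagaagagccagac
GGGCGG was found in 32.7% and TATAAA in 12.4% of 32851 such windows, so neither is rare. The full 250-base *Pdgfa* windows held 66.4% and 72.4% G and C, and that of *Pdgfd* 53.6%, against a median of 52.4%.

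Of the other genes of the pathway and its relatives, none passed edgeR's test. The lists held 77 names, of which 72 genes were tested. At an unadjusted p under 0.05, 6 were lower and 4 higher, against 7.6% and 6.9% of all genes. Every DKO library lay under every WT library for 4 of the 72 genes, against 3.5% of all genes, and above for 1, against 2.45%. The 4 include *Furin*, *Hras* and *Jun*, whose levels follow. Limma-voom called 0, and DESeq2 called 4 lower, among them *Sparc*, *Jun* and *Vegfa*, and 0 higher, against 2.68% and 1.77%. The median log2 fold change was -0.10, with 41 negative and 31 positive values, beside 47.5% negative among all genes.

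By role, the 7 proteases that process the ligands had a median of -0.17. *Furin*, the convertase of the A and B chains, was the protease with the smallest p: it measured 101 to 124 CPM in WT and 76.0 to 100.1 CPM in DKO, without overlap (log2 fold change -0.36, SE 0.12, adjusted p = 0.168, edgeR). *Pcsk6*, a related convertase, had a log2 fold change of -0.64 (SE 0.32) at about 1 CPM. All 4 genes for ligand-binding proteins and co-receptors had negative values (median -0.36). *Sparc*, a matrix protein that binds PDGF-B, measured 99.0 to 143 CPM in WT and 35.6 to 103 CPM in DKO, with overlap at DKO 2 (log2 fold change -0.86, SE 0.26, adjusted p = 0.138 by edgeR and 0.0282 by DESeq2). *Lrp1*, a co-receptor of PDGFRβ, had -0.28 (SE 0.15).

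The 35 adaptor and effector genes were centred at 0, with a median log2 fold change of 0.01, 17 negative and 18 positive values. Within them *Hras*, a small GTPase of the MAPK route, measured 6.51 to 8.80 CPM in WT and 4.61 to 6.44 CPM in DKO, without overlap (-0.47, SE 0.14, adjusted p = 0.138, edgeR). The 7 negative regulators, phosphatases and ubiquitin ligases that damp receptor signals, had a median of -0.07, and *Cblb* (-0.39, SE 0.20) and *Cbl* (-0.27, SE 0.19) had the smallest p among them.

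Transcripts that growth factor signalling induces within minutes to hours had values on both sides of 0. Of 8 such early target genes 6 were tested, since *Fosb* and *Fosl1* were too low, 3 had negative values and the median log2 fold change was -0.03. *Jun*, a subunit of AP-1, measured 11.7 to 15.8 CPM in WT and 6.50 to 10.1 CPM in DKO, without overlap (log2 fold change -0.67, SE 0.16, adjusted p = 0.0665 by edgeR and 0.0064 by DESeq2), whereas its relative *Junb* had 0.31 (SE 0.17).

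The PDGFs belong to one superfamily with the VEGFs, and their receptors share a family with the receptors for stem cell factor, CSF-1 and FLT3 ligand. The 8 related ligands tested had a median log2 fold change of -0.20. *Vegfa*, the main angiogenic VEGF, measured 10.4 to 26.3 CPM in WT and 6.48 to 13.3 CPM in DKO, where WT 2 lay within the DKO range (-1.03, SE 0.26, adjusted p = 0.0813 by edgeR and 0.0067 by DESeq2). *Kitl*, the ligand of KIT, had -0.38 (SE 0.18). The 5 related receptors tested had a median of 0.16. *Kdr*, the main VEGF receptor of endothelium, measured 5.07 to 5.85 CPM in WT and 5.90 to 9.70 CPM in DKO, every DKO library above every WT library as for 2.45% of all genes (0.45, SE 0.15, adjusted p = 0.203, edgeR), and *Flt1*, also a VEGF receptor, had 0.43 (SE 0.25).

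**Figure D4:**
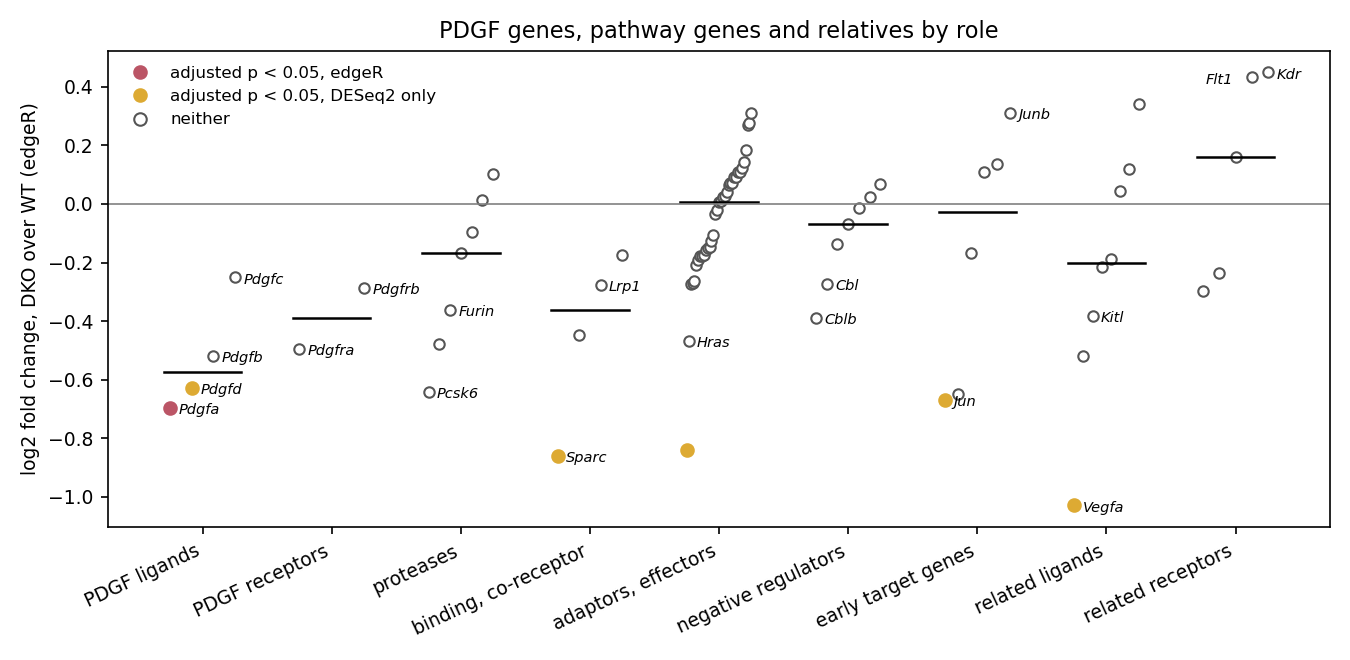
The log2 fold change (DKO over WT, edgeR) of each tested gene by role, with a line at the median of each role. Among these genes *Pdgfa* alone is past edgeR's threshold, *Pdgfd*, *Sparc*, *Jun* and *Vegfa* are among those past DESeq2's, and the adaptors and effectors centre near 0.

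The cell types that make or receive PDGF were followed through marker lists. Myoepithelial markers moved with *Pdgfa*: their summed level was 601 to 955 CPM in WT and 235 to 545 CPM in DKO, all 6 genes tested were negative, and *Myh11* and *Tagln* were called lower by edgeR (5 by DESeq2 and 4 by limma-voom), beside 0.462%, 2.68% and 0.759% of all genes. The summed level of granular duct markers was 28521 to 66205 CPM in WT and 4274 to 22451 CPM in DKO. All 6 were negative; edgeR called 0 of them (6 at an unadjusted p under 0.05), DESeq2 6 and limma-voom 3, beside 7.6% of all genes lower at an unadjusted p under 0.05, 2.68% by DESeq2 and 0.759% by limma-voom. Acinar markers were higher in sum, 129812 to 199723 CPM in WT and 208290 to 351296 CPM in DKO, with all 5 genes positive, 0 called by edgeR (3 at an unadjusted p under 0.05) or limma-voom and 2 by DESeq2, *Mucl2* and *Pip*, beside 6.9% of all genes higher at an unadjusted p under 0.05 and 1.77% by DESeq2. The tissue therefore showed the markers of an SMG. The duct and myoepithelial sums separated the genotypes, lower in DKO, as *Pdgfa*, *Pdgfd* and *Pdgfb* did. The acinar sum separated them in the other direction. The part of these cell types in the levels of *Pdgfa* and *Pdgfd* was not tested.

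Fibroblast markers, beside which *Pdgfra* and *Pdgfc* are read, summed to 358 to 599 CPM in WT and 155 to 442 CPM in DKO, with overlap. Of these 8 genes 6 were negative, with a median log2 fold change of -0.72, and 0 were called by edgeR (4 lower at an unadjusted p under 0.05, beside 7.6% of all genes), DESeq2 or limma-voom. Mural cell markers, beside which *Pdgfrb* is read, summed to 28.5 to 33.5 CPM in WT and 22.8 to 34.3 CPM in DKO, with a median of 0.19. Of those 8 genes edgeR called 0 (2 lower at an unadjusted p under 0.05, beside 7.6%), limma-voom 0 and DESeq2 1, *Mcam*, which was lower (beside 2.68%). Endothelial markers, beside which *Pdgfb* is read, summed to 38.4 to 52.7 CPM in WT and 50.1 to 56.2 CPM in DKO, with 7 of 8 genes positive, and edgeR called 0 (1 higher at an unadjusted p under 0.05, beside 6.9% of all genes), as did DESeq2 and limma-voom. By its median, the fibroblast list thus lay on the side of *Pdgfra*. By median the mural list lay on the opposite side from *Pdgfrb*, but it was mixed. Of its 8 genes 6 were positive, 0 of them at an unadjusted p under 0.05 (edgeR). The 2 negative ones were *Mcam* (log2 fold change -1.01, SE 0.22) and *Cspg4* (-0.73, SE 0.30). The endothelial list lay on the opposite side from *Pdgfb*. The part of these cell types in the levels of *Pdgfra*, *Pdgfrb* and *Pdgfb* was not tested. Platelet markers, 2 of 5 of them tested, summed to 5.41 to 10.9 CPM in WT and 2.96 to 7.47 CPM in DKO. This sum is that of *Pf4* and *Itga2b*, since *Ppbp*, *Gp9* and *Gp1bb* held at most 3, 4 and 1 counts. The 2 tested were negative, as *Pdgfb* was (median -0.71), and edgeR called 0 of them. Within genotypes *Pdgfb* and these 2 genes varied in opposite directions (r = -0.52).

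**Figure D5:**
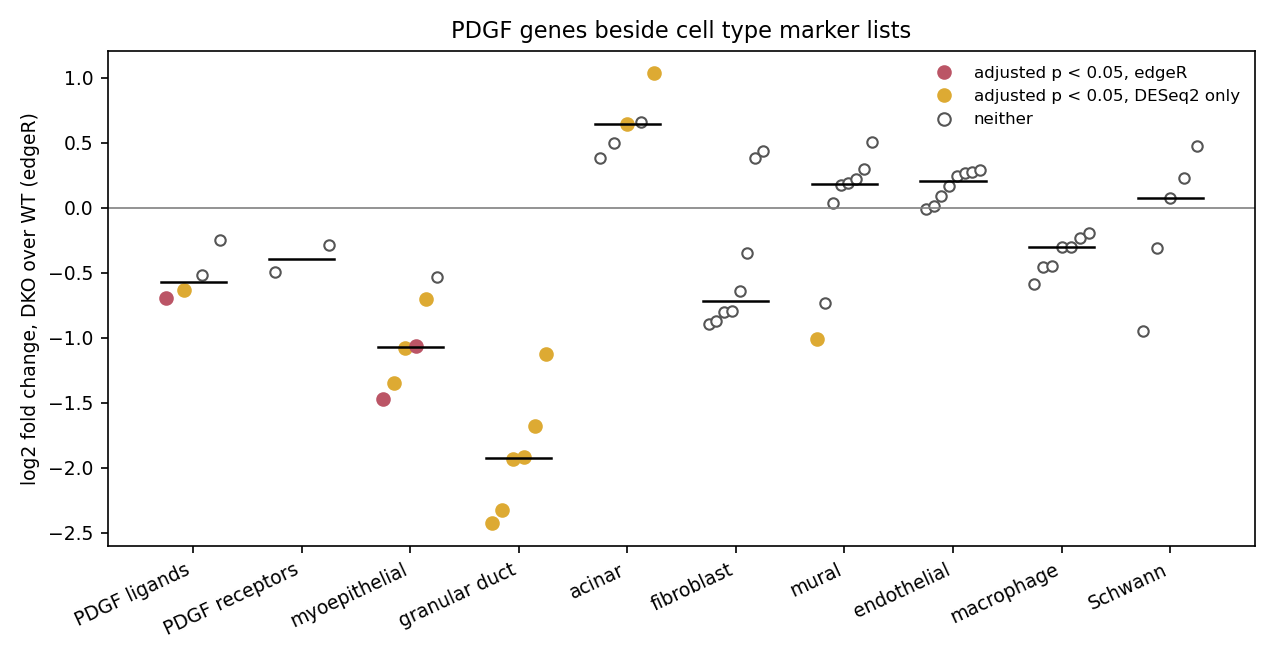
The log2 fold change (DKO over WT, edgeR) of the PDGF genes beside that of each tested marker gene, with a line at the median of each list. The duct and myoepithelial markers lie below 0 throughout, 6 of 8 fibroblast markers lie below 0, and the endothelial and mural medians lie above 0.

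Of the remaining lists, all 7 macrophage genes were negative (median -0.30) and the 5 Schwann cell genes had a median of 0.08. Most lymphocyte and adipocyte genes were too low to test, 2 of 6 passing in each list, with medians of -0.20 and -0.07. For skeletal muscle 3 of 6 were tested, and *Myh4* and *Tnnc2* held 0 counts. Of the 3, edgeR called 1 lower, against 0.462% of all genes: *Acta1* (log2 fold change -3.65, adjusted p = 0.0385), on 2 to 185 counts. The list held 2 negative values and 1 positive, *Ckm* (0.61, SE 0.27). A list drawn up for other salivary glands had 3 of 4 tested and all positive. Its summed level marks no other gland, since *Prol1*, which SMG acinar cells make, held nearly all of it. *Bpifa2* measured 4.42 to 26.5 CPM in WT and 43.1 to 7408 CPM in DKO, with its highest count in DKO 1. *Amy1* measured 17.3 to 25.5 CPM in WT and 7.12 to 636 CPM in DKO, with its highest count also in DKO 1. The part of other gland tissue in these levels was not tested.

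Library-to-library variation was compared after centring log2 CPM within each genotype, as a description over the 9 libraries, which share their scaling. *Pdgfc* varied with *Pdgfra* (Pearson r = 0.86, Spearman's rho = 0.82, r = 0.76 without the 2 libraries farthest from the median). It also varied with *Pdgfrb* (r = 0.78, rho = 0.57, r = 0.73). *Pdgfa* varied less closely with *Pdgfd* (r = 0.64, rho = 0.63, r = 0.45) and with *Pdgfra* (r = 0.58, rho = 0.52, r = 0.67). For *Pdgfc* and the fibroblast markers r was 0.70 (rho = 0.53) and dropped to 0.20 without 2 libraries. With the mean of the myoepithelial markers *Pdgfa* had r = 0.90 (rho = 0.90, r = 0.86). Against granular duct markers its r was 0.76 and dropped to 0.34 without 2 libraries, so that value rests on them. *Pdgfd* varied with the granular duct markers (r = 0.83, rho = 0.77, r = 0.67), beside -0.77 for the endothelial markers. Its r with the myoepithelial markers was 0.73 (rho = 0.68) and dropped to 0.34 without 2 libraries. *Pdgfra* and the fibroblast markers had r = 0.80 (rho = 0.70, r = 0.51), beside 0.88 for *Pdgfra* and the macrophage markers, 0.84 for the myoepithelial and -0.89 for the acinar markers. *Pdgfrb* and the mural markers had r = 0.66 (rho = 0.32, r = 0.30), below its value with the fibroblast markers (r = 0.77, rho = 0.60, r = 0.34). *Pdgfb* and the endothelial markers had r = -0.27 (rho = -0.35), beside -0.52 for the platelet and 0.69 for the lymphocyte markers.

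By the same measure, the 3 tested genes most like *Pdgfa* were *Slmap* (r = 0.97), *Gm9845* (0.95) and *Pigw* (0.95). For *Pdgfd* they were *Mtfmt* (0.97), *Aprt* (0.96) and *Fam174c* (0.95), for *Pdgfb* *Gpatch1* (0.96), *Paqr3* (0.93) and *Csf1* (0.92), and for *Pdgfc* *Trim12c* (0.98), *Clmp* (0.97) and *Plpp3* (0.97). *Dsel* (0.99), *Tgfbr1* (0.98) and *Naalad2* (0.98) were most like *Pdgfra*, and *Gbp9* (0.97), *Pmp22* (0.96) and *Cnot6* (0.96) most like *Pdgfrb*. These are the highest of 13842 values over 9 libraries, and none of the 18 genes was called by edgeR.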

How the data were processed

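Male SMG RNA (4 WT, 5 DKO) was sequenced on a HiSeq2500, with 1 unstranded Nextera XT library for each gland. The female libraries of the study were not analysed here. The submitters' processing notes name STAR 2.5.2a, edgeR, limma and DESeq2 and the builds GRCh38, GRCm38 and mm10; the counting tool and the annotation are not given in the sources used here. The authors deposited raw read counts for 48733 rows, the same counts filtered to 17562 rows, and a normalized signal table, which is the filtered counts times 1 constant per library (TMM-normalized CPM). All 158058 normalized values gave back whole counts within 0.001 count. Spike-in rows (7, at most 3 counts per library) were left out of the tests. Transgene rows were not removed in this step.

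Raw counts were tested in R 4.3.3 with edgeR 4.0.16 (TMM factors, filterByExpr with a minimum count of 10 and a minimum total of 15, legacy quasi-likelihood fit, genotype as the single term) and Benjamini-Hochberg adjustment over 13842 genes, with a threshold of 0.05. The study names DESeq2, so DESeq2 1.42.0 was an alternative, beside limma 3.58.1 (voom). Standard errors were obtained from each log2 fold change and its F statistic. Printed CPM values are the deposited ones. CPM per kb divides them by the exon union of GENCODE M21, which also gave the gene positions. Symbols were those of the deposited normalized values, or of a list of gene names where these had none. Exact permutation tests covered all 126 splits. Python 3.11.15, pandas 2.3.3, numpy 2.4.6, scipy 1.17.1 and matplotlib 3.10.9 made summaries and plots. The tests were tried on simulated data.

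The PDGF genes and all gene lists were chosen with earlier results of these data known. Genes named are the 6 PDGF genes, the deleted genes, list genes past the threshold or otherwise the 2 with the smallest p per role list, and the 3 genes most like each PDGF gene; DESeq2's list calls, markers and genes sharing exon bases were named after their values were seen. Of the genes this rule names, 1 is not reported here. Separate glands are stated as the samples, so p-values measure the spread between these glands.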

Additional observations from a re-analysis of the deposited data

Results flagged for a closer look

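*Pdgfa* in WT 2, at 50.7 CPM, stood apart from the other 3 WT libraries (67.3 to 70.3 CPM): its gap to the nearest of them was 0.847 of the range of the 4 libraries, above Dixon's 95% critical value. Of 12 groups of values tested in this way (6 genes, 2 genotypes), this was the 1 that passed, and chance gives about 1 in 20. Without WT 2 the log2 fold change of *Pdgfa* was -0.79 (adjusted p = 0.0158, edgeR).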

How the results depend on the processing

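All 6 PDGF genes kept a negative log2 fold change under every alternative run. With 1 library left out by edgeR, *Pdgfa* ranged from -0.79 to -0.64, *Pdgfd* from -0.73 to -0.46, *Pdgfb* from -0.58 to -0.39, *Pdgfc* from -0.36 to -0.11, *Pdgfra* from -0.68 to -0.35 and *Pdgfrb* from -0.34 to -0.17; with DESeq2, chosen after seeing the data, *Pdgfa* ranged from -0.79 to -0.64 and *Pdgfd* from -0.72 to -0.46. *Pdgfa* was no longer called with upper quartile factors (-0.69, adjusted p = 0.0514), without the 20 most abundant genes (-0.69, 0.0506), on the authors' values with a pseudocount of 0.1 (-0.69, 0.0517), or with the replicate number as a block (-0.70, 0.0922); the cause was not tested. *Pdgfd* was called by DESeq2 alone (-0.63, 0.0394), also without WT 2 (-0.67, 0.0495), WT 4 (-0.71, 0.0346) or DKO 4 (-0.72, 0.0091). Scaling by library totals moved the median of all genes by -0.29 and put *Pdgfa* at -0.97 (adjusted p = 0.0282).

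The replicate block left 0 of 87 calls over all genes. Same-numbered WT and DKO libraries deviated together with correlations of 0.150, 0.298, 0.0739 and 0.0136. Those of differently numbered libraries ran from -0.222 to 0.0968. The sources used here do not say that the numbers pair the samples, so they were not taken as pairs. Whether same-numbered libraries share a source of variation was not tested.

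The 87 calls became 5 with upper quartile factors, 358 with library totals (21 higher, 337 lower), 5 without the 20 most abundant genes, 616 with DESeq2, 148 with limma-voom, 347 with no filter on low counts, 45 with a robust prior, 0 to 441 with 1 library left out (0 without WT 1, WT 3, WT 4, DKO 2 or DKO 5, 1 without DKO 1, 2 without DKO 3, 306 without WT 2 and 441 without DKO 4) and, with DESeq2, 266, 815, 303 and 475 without WT 1 to 4 and 586, 468, 511, 887 and 512 without DKO 1 to 5. The 0 calls among pathway genes became 2 with library totals, 4 with DESeq2, 2 with no filter, 0 to 3 with 1 library left out (2 without WT 2, 3 without DKO 4) and 0 to 6 with DESeq2 and 1 library left out.

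Over the longest annotated transcript in place of the exon union, levels in WT were 31.2 (*Pdgfa*), 1.64 (*Pdgfc*), 1.44 (*Pdgfra*) and 0.454 (*Pdgfb*) CPM per kb, and in DKO 19.2, 1.37, 1.02 and 0.317, in the same order. Counts of 13 to 75 limit *Pdgfb*, and those of 25 to 185 limit *Pdgfrb*.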
